A study of Mus musculus with 10 samples.

Results

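The antiviral genes induced by type I interferon were followed across neutrophils and CCR2+ monocytes sorted from the lungs of tumour-bearing mice. The set holds 34 genes taken from a fixed list of names, of 29893 genes in the deposited transcript tables. The names were matched to the symbols in the authors' comparison tables, where 33 of the 34 were found under the same symbol and Ifit3b, listed there as I830012O16Rik, was matched by its Ensembl identifier. All mice were NOD/scid, an immunodeficient strain without mature T and B cells, and their tumours had reached end point. TN1 mice carried the breast tumour HCl-001, which the labels call highly metastatic, and TN2 mice carried HCl-002, called low metastatic. Each cell type was represented by 2 TN1 libraries (tag_191 and tag_482) and 3 TN2 libraries (tag_367, tag_706 and tag_1341), so that 10 libraries fell into 4 groups. A group without a tumour was not analysed here. The labels do not say that tags are separate mice, so p-values measure the spread between samples, part of which may be technical.

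Type I interferons are cytokines that nearly every cell can receive through the receptor pair IFNAR1 and IFNAR2. The receptor activates the kinases JAK1 and TYK2, which phosphorylate STAT proteins, and STAT2 and IRF9 are parts of the complex ISGF3 that then forms. ISGF3 binds interferon-stimulated response elements in promoters and switches on a shared set of antiviral genes, whose proteins sense foreign RNA, degrade it, block its translation or hold virus particles at the membrane. Many of these genes also respond to interferons of other types, so their level does not name the ligand.

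The promoter windows of the members were read first, because the response element is a short sequence that can be seen. RefSeq windows on GRCm38.p6, from 250 bases before to 50 bases after the gene start, were matched for 26 of the 34 members. Mx1, Mx2, Oas2, Usp18, Rtp4, Dhx58, Parp9 and Parp14 had no window in the table used. The core of the response element was searched on both strands as GAAA, then 2 bases of any kind, then GAAA again. It was found in 13 of the 26 members with a window, whereas 3.99% of all 27025 gene symbols with a window held it. The core was present in Isg15, Ifit1, Ifit3, Ifit3b, Oas1a, Oas3, Ddx58, Ifih1, Ddx60, Eif2ak2, Rsad2, Stat2 and Bst2. A match is a description of letters and not of binding.

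Upstream sequences of 5 members are shown, the 250 bases before each RefSeq gene start, 5′ to 3′ in the direction of the gene, with matches to the core in capitals. They were chosen after the matches were known, to show what the core looks like in genes that were lower in monocytes (Isg15, Ifit3, Ifit3b and Rsad2) and in a gene that was higher there (Bst2). Isg20 and Ifi44, whose differences between cell types were larger than those of Isg15 and Bst2, had a window without the core. Isg15 lay at chr4:156200819-156201068 on the minus strand, and Ifit3 at chr19:34583279-34583528 and Ifit3b at chr19:34607707-34607956, both on the plus strand. Rsad2 lay at chr12:26456453-26456702 and Bst2 at chr8:71537473-71537722, both on the minus strand.
Isg15: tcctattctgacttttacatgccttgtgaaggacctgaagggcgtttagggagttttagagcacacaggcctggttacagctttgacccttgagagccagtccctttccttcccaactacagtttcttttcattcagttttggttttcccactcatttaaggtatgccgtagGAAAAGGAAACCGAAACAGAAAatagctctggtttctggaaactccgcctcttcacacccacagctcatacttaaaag
Ifit3: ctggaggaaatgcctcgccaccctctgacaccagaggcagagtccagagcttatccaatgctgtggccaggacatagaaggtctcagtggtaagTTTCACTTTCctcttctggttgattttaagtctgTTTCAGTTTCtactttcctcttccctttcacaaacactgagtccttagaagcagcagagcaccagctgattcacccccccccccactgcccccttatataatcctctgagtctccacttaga
Ifit3b: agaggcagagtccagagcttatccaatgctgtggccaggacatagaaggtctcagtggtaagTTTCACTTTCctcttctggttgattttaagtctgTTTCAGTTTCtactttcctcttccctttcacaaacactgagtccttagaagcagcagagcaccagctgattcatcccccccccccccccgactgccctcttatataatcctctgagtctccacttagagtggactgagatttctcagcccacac
Rsad2: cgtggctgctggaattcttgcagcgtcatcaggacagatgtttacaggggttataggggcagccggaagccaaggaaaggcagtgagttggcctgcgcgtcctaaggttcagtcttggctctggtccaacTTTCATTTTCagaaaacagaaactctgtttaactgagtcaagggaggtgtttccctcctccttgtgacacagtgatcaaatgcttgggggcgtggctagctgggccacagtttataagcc
Bst2: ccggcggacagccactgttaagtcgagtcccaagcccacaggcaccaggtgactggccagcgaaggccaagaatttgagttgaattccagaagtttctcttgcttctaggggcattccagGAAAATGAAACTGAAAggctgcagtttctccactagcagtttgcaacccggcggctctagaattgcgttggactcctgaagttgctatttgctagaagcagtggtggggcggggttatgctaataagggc

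Isg15 held 3 overlapping matches, starting at positions -78, -72 and -66 counted from the gene start. Ifit3 and its copy Ifit3b each held 2 matches, at -156 and -122 in Ifit3 and at -188 and -154 in Ifit3b. Rsad2 held 1 match at -120, and Bst2 held 2 overlapping matches at -130 and -124. The core therefore occurred both in genes that were lower in monocytes and in a gene that was higher there. Among the members with a window, it was present in 8 of the 14 that were lower in monocytes, in 1 of the 2 that were higher and in 4 of the 10 that did not pass the test. The gamma-activated site core, TTCNNNGAA, which reads the same on both strands, was in 6 of the 26 members and in 9.55% of all symbols with a window. The composite of an ETS and an IRF motif, GGAA, 2 bases of any kind and GAAA, was in 5 of the 26 and in 3.16% of all symbols. In Stat2 a match to the composite overlapped a match to the response element core. In Bst2 a match to the gamma-activated site core did so.

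**Figure D1:**
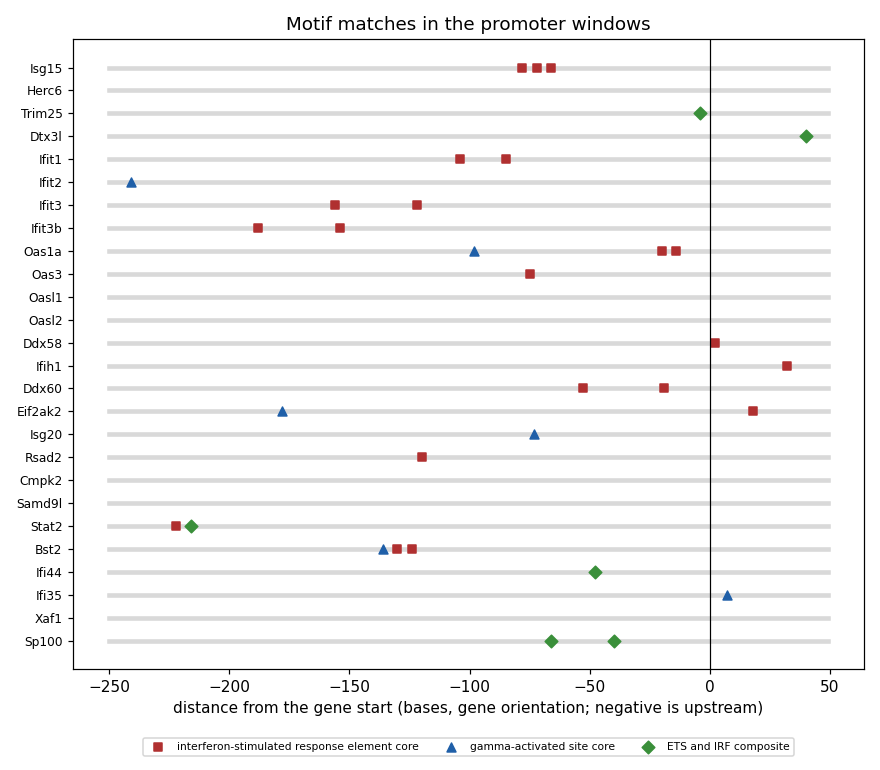
Positions of motif matches in the promoter windows of the 26 members with a window. Each grey bar is a window from 250 bases before to 50 bases after the gene start, and each symbol is the start of a match. Most matches to the response element core (squares) lie upstream of the start, and those of Ddx58, Ifih1 and Eif2ak2 lie after it.

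Depth ran from 7239218 to 11311370 estimated counts a library, with at least 5 counts for 8851 to 15211 genes. In each cell type TN1 tag_482 stood apart, with the lowest gene number and the largest mitochondrial part of the TPM (3.0% in neutrophils and 19.9% in monocytes). Levels between libraries are given as CPM, counts scaled to the normalised library size, and levels between genes as TPM, which also divides by the length of the transcript. All 10 neutrophil markers exceeded 1 CPM in every neutrophil library, with sums of 53386 to 73123 CPM, against 219 to 1562 CPM in monocytes. Ccr2 stood at 226 to 868 CPM in monocytes. The sum of the 8 monocyte markers was nevertheless higher in neutrophils (24478 to 46282 CPM) than in monocytes (6000 to 11816 CPM), because Cd14, a coreceptor for bacterial lipopolysaccharide, alone gave 23742 to 45468 CPM in neutrophils. Neutrophil TN2 tag_1341 held more of some monocyte transcripts than the other neutrophil libraries. Ccr2 was at 78.6 CPM against 3.49 to 14.9 CPM. F13a1, a coagulation factor subunit of monocytes, was at 177 CPM against 0.572 to 6.31 CPM. Ly6c2, Ms4a6c and Fn1 were also highest in this library. Csf1r (743 CPM), Cx3cr1 (3.82 CPM) and Cd14 (40455 CPM) were not, and lay within the range of the other neutrophil libraries. Monocyte TN2 tag_706 held the highest sums of endothelial (1101 CPM) and stromal (925 CPM) markers, against at most 135 and 48.0 CPM in the other monocyte libraries. Cd3e, which marks T cells, was at 0 in every library, and all 5 lymphocyte markers together summed to at most 3.63 CPM. Natural killer cell markers summed to 0.802 to 269 CPM in monocytes and 0.916 to 45.2 CPM in neutrophils. Conventional dendritic cell markers summed to 152 to 1205 CPM in monocytes, highest in TN1 tag_482, and to 2.03 to 11.3 CPM in neutrophils.

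Neutrophils devoted more of their RNA to the antiviral genes than monocytes did. The members' summed TPM was 7307 and 7541 in the TN1 neutrophil libraries and 8310, 10413 and 13177 in the TN2 neutrophil libraries (tag_367, tag_706 and tag_1341). In monocytes it was 2927 and 2415 in TN1 and 3743, 3431 and 4568 in TN2. The members thus made up 0.731% to 1.32% of neutrophil transcripts and 0.242% to 0.457% of monocyte transcripts, with no overlap between the cell types. In bulk samples fewer expressing cells and less RNA per cell cannot be told apart. Isg15 and its conjugation partners were the largest group in neutrophils, at 2456 to 4219 TPM, and the membrane and other effectors were the largest group in monocytes, at 1232 to 1915 TPM. Over the 34 genes, the order of mean TPM in neutrophils and in monocytes had a Spearman coefficient of 0.53, a description across genes that share their libraries.

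**Figure D2:**
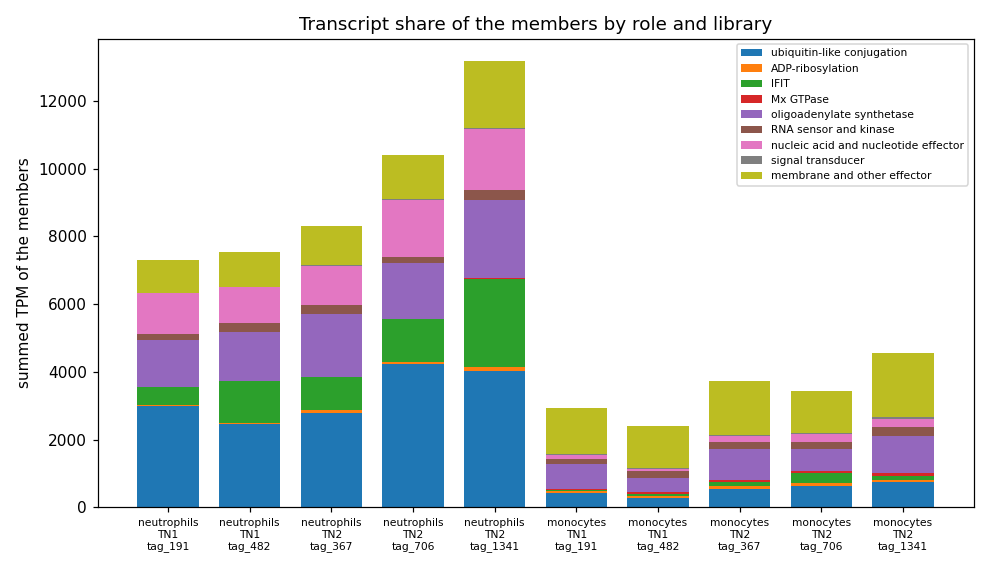
Summed TPM of the members in each library, stacked by role. The 5 neutrophil bars reach 7307 to 13177 TPM and the 5 monocyte bars 2415 to 4568 TPM, with the tallest bar at neutrophil TN2 tag_1341.

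The comparison of the cell types asks which members differ between monocytes and neutrophils of these lungs, averaged over the tumours. By edgeR's quasi-likelihood test with Benjamini-Hochberg adjustment over 13384 genes, 16 of the 34 members were lower in monocytes, where 12.4% of all genes tested were lower. A further 3 members, Mx1, Bst2 and Ifi44, were higher in monocytes, where 15.5% of all genes were higher. Together 19 members passed, against 27.9% of all genes. The other 15 did not pass the test, and all 34 had passed the filter on low counts. The median log2 difference, monocytes minus neutrophils, was -1.02 over the members and 0.46 over all genes tested. In 16 members every monocyte library lay below every neutrophil library (12.6% of all genes did so), and in 3 every monocyte library lay above (16.0% of all genes). The 16 that passed as lower were Isg15, Ifit1, Ifit2, Ifit3, Ifit3b, Oas2, Oas3, Oasl1, Oasl2, Ddx58, Ddx60, Isg20, Rsad2, Cmpk2, Samd9l and Rtp4. On the log2(TPM + 1) scale with limma-trend, which shifted the median of all genes from 0.46 to 0.62, 5 members were higher (33.9% of all genes) and 15 lower (8.95% of all genes). Mx2 and Ifi35 passed on that scale and Ddx58 did not.

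**Figure D3:**
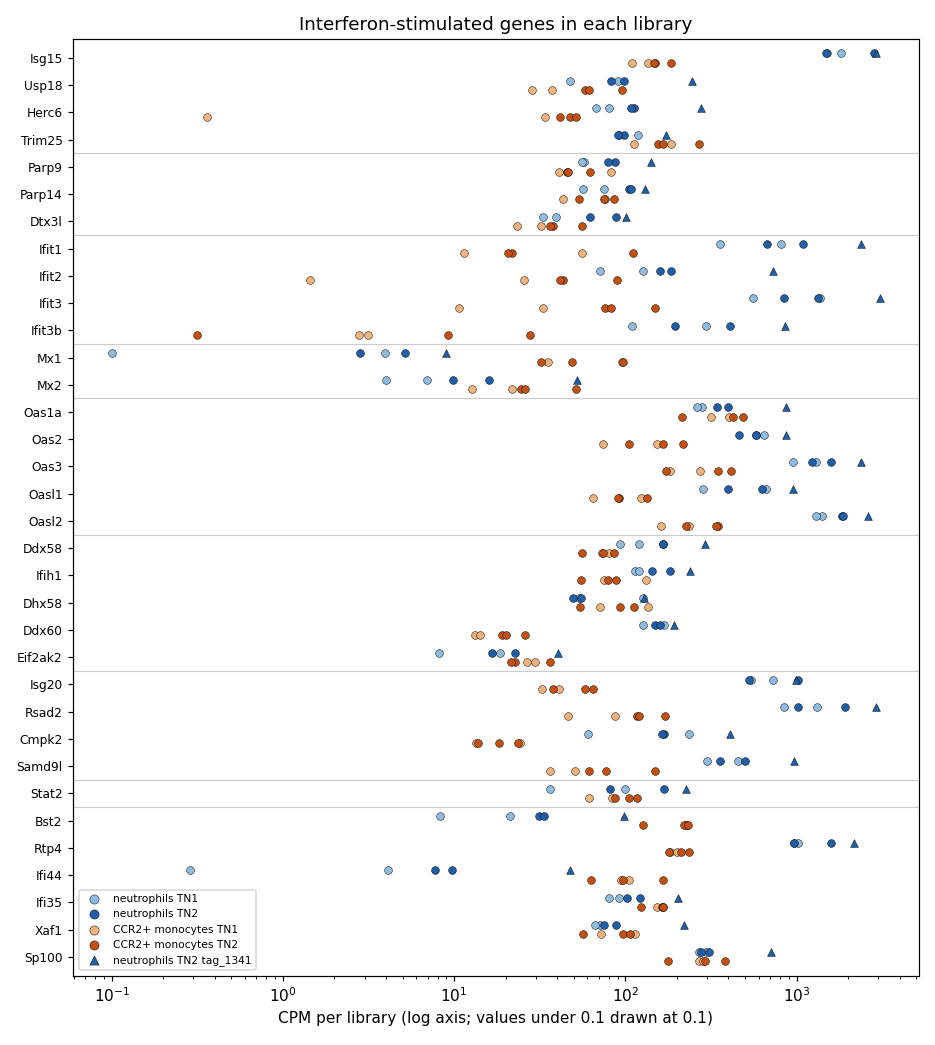
CPM of each member in each of the 10 libraries on a log axis, with neutrophils in blue and monocytes in orange, light for TN1 and dark for TN2, and a triangle for neutrophil TN2 tag_1341. Horizontal lines separate the roles. The 4 Ifit genes, Isg20, Rsad2 and Rtp4 sit to the right in neutrophils, Mx1, Bst2 and Ifi44 sit to the right in monocytes, and the triangle is the rightmost neutrophil point for 33 of the 34 members.

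Of the 4 members of the ISG15 conjugation group, only Isg15 passed the test. Isg15 encodes a small ubiquitin-like protein that is attached to other proteins and also secreted. Its level in the neutrophil libraries was 1813 and 1512 CPM in TN1 and 1485, 2820 and 2923 CPM in TN2, in the order of tags given above. In monocytes it was 136 and 110 CPM in TN1 and 148, 147 and 185 CPM in TN2. The lowest neutrophil library was far above the highest monocyte library, and the log2 difference was -3.84 ± 0.27 (SE, adjusted p = 5.09e-05). By mean TPM Isg15 was the most abundant member in neutrophils. Usp18, which removes ISG15 and restrains the receptor, averaged 113 ± 76.1 CPM in neutrophils and 56.1 ± 26 CPM in monocytes (SD, n = 5 each). Its log2 difference was -1.03 ± 0.37 with an adjusted p of 0.0647. Usp18 passed with DESeq2 (adjusted p = 0.0405) and without neutrophil TN1 tag_191 (0.0499) or TN2 tag_367 (0.0487). Herc6, the enzyme that attaches ISG15 in mice, averaged 129 ± 84.2 CPM in neutrophils and 35.0 ± 20.4 CPM in monocytes (SD, n = 5 each). The groups did not overlap for Herc6, but its log2 difference of -1.95 ± 0.79 missed the threshold (adjusted p = 0.0923). Monocyte TN1 tag_482 held 0.361 CPM of Herc6, and without that library the log2 difference was -1.47. Without monocyte TN1 tag_191 the log2 difference of Herc6 was -4.75, with TN1 monocytes reduced to tag_482. Each of these fits left TN1 monocytes with the other library alone. Trim25, a ubiquitin ligase that acts on the RNA sensor RIG-I, averaged 115 ± 34.5 CPM in neutrophils and 177 ± 57.3 CPM in monocytes (SD, n = 5 each), with an adjusted p of 0.149.

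None of the 3 ADP-ribosylation genes passed the test. Parp9 and Dtx3l encode partners in a complex that modifies proteins during the interferon response, and Parp14 encodes a related ADP-ribosyltransferase. Parp9 stood at 57.6 and 55.5 CPM in TN1 neutrophils, at 86.7, 79.5 and 142 CPM in TN2 neutrophils, at 41.1 and 82.0 CPM in TN1 monocytes and at 62.4, 45.6 and 46.1 CPM in TN2 monocytes. The cell types overlapped, and the log2 difference was -0.44 ± 0.29 (adjusted p = 0.285). Dtx3l had -0.67 ± 0.28 (adjusted p = 0.0968) and Parp14 -0.40 ± 0.26 (adjusted p = 0.267). Of the mean TPM of Parp14, 58.7% fell on Parp14-202, a transcript annotated as a retained intron. The genes of Parp9 and Dtx3l lie on opposite strands of chromosome 16 and share 682 bases, from 35938470 to 35939151. Whether the counting used strand is not given in the sources used here, so reads from the shared stretch cannot be told apart. Antisense genes also overlap Parp9, Oasl1, Ifi35 and Sp100 (Gm15564, Gm13822, Gm11626 and Gm17017, in that order), with the same possible limit on their levels. All these overlaps are of whole gene spans, and whether they fall in exons was not examined.

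All 4 Ifit genes were lower in monocytes. The IFIT proteins bind viral RNA that lacks the cap marks of the host, and IFIT3 stabilises IFIT1. Ifit3, the most abundant of them, stood at 556 and 1369 CPM in TN1 neutrophils and at 848, 1342 and 3074 CPM in TN2 neutrophils. In monocytes Ifit3 stood at 33.0 and 10.7 CPM in TN1 and at 75.8, 148 and 82.9 CPM in TN2. Every neutrophil library exceeded every monocyte library, with a log2 difference of -4.78 ± 0.56 (adjusted p = 0.000313). Ifit1 had a difference of -4.43 ± 0.75 (adjusted p = 0.00205) and Ifit3b of -5.69 ± 1.03 (adjusted p = 0.00293). Ifit2 had -2.74 ± 0.74 (adjusted p = 0.0210), with 1.44 to 89.6 CPM in monocytes and 70.8 to 725 CPM in neutrophils, which overlap. Without neutrophil TN1 tag_482 the adjusted p of Ifit2 was 0.0564, and without both tag_482 libraries it was 0.0714. Ifit3 and Ifit3b share much of their sequence: 61.8% of the 31-base words in Ifit3 transcripts also occur in another gene, and 55.2% of those in Ifit3b, so the split of reads between them is uncertain. The call of Ifit3 was kept with the counts of both genes summed. All 4 genes lie on chromosome 19 between positions 34550694 and 34650009.

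Of the 2 Mx genes, Mx1 was higher in monocytes and Mx2 did not pass the test. Mx1 encodes a nuclear GTPase known for restricting influenza virus in mice, and Mx2 a cytoplasmic relative. Mx1 was nearly absent from neutrophils, at 3.97 and 0 CPM in TN1 and at 5.2, 2.82 and 9.0 CPM in TN2. In monocytes it stood at 35.3 and 95.9 CPM in TN1 and at 48.9, 32.2 and 96.3 CPM in TN2. The cell types did not overlap, and the log2 difference was 4.20 ± 0.91 (adjusted p = 0.00769). Of the mean TPM of Mx1, 41.0% fell on transcript Mx1-205 and 30.7% on Mx1-203, both annotated as targets of nonsense-mediated decay, so a count of Mx1 is not a count of protein-coding RNA. Mx2 stood at 6.91 and 4.0 CPM in TN1 neutrophils and at 16.0, 9.80 and 52.0 CPM in TN2 neutrophils. In monocytes Mx2 stood at 12.7 and 21.9 CPM in TN1 and at 24.6, 51.8 and 26 CPM in TN2. The cell types overlapped for Mx2, and its difference of 1.03 ± 0.54 had an adjusted p of 0.182. Neutrophil TN2 tag_367 (16.0 CPM) and tag_1341 (52.0 CPM) both exceeded monocyte TN1 tag_191 (12.7 CPM). Without neutrophil TN2 tag_1341 the adjusted p was 0.0459 at a log2 difference of 1.53, and the cell types still overlapped.

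Of the 5 oligoadenylate synthetase genes, 4 were lower in monocytes. These enzymes make short adenylate chains that switch on RNase L, which cuts RNA in the cell. Oasl2, the most abundant by mean TPM, stood at 1411 and 1300 CPM in TN1 neutrophils and at 1837, 1859 and 2611 CPM in TN2 neutrophils. In monocytes Oasl2 stood at 234 and 161 CPM in TN1 and at 347, 226 and 338 CPM in TN2. The gap between the cell types was wide, with a log2 difference of -2.78 ± 0.24 (adjusted p = 8.45e-05). Oas2 had -2.20 ± 0.31 (adjusted p = 0.000824), Oas3 had -2.39 ± 0.32 (adjusted p = 0.000588) and Oasl1, which lacks synthetase activity, had -2.49 ± 0.36 (adjusted p = 0.000911). Oas1a did not pass the test, with 431 ± 251 CPM in neutrophils and 369 ± 106 CPM in monocytes (SD, n = 5 each). Its log2 difference was -0.05 ± 0.32 on the count scale and 0.72 on the log2(TPM + 1) scale. Oas1a shares 68.8% of its 31-base words with other genes, mostly with Oas1g, so its level is uncertain. Of the mean TPM of Oasl2, 48.2% fell on a transcript annotated as a target of nonsense-mediated decay, Oasl2-205.

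Of the 5 RNA sensors and kinases, 2 were lower in monocytes. Ddx60, a helicase described as a helper of RNA sensing, stood at 127 and 168 CPM in TN1 neutrophils and at 149, 160 and 192 CPM in TN2 neutrophils. In monocytes it stood at 13.3 and 14.1 CPM in TN1 and at 19.0, 26.1 and 20.2 CPM in TN2. Its replicates lay close together within each cell type, and the log2 difference was -3.18 ± 0.24 (adjusted p = 5.42e-05). Ddx58 encodes RIG-I, which recognises RNA with an uncapped end, and had -1.0 ± 0.25 (adjusted p = 0.0155). Of its mean TPM, 45.7% fell on the protein-coding transcript Ddx58-201 and the rest on transcripts annotated as processed. Ddx58-201 overlapped between the cell types, at 19.8 to 41.1 TPM in neutrophils and 18.9 to 29.4 TPM in monocytes. The call of Ddx58 was lost without monocyte TN1 tag_191 (adjusted p = 0.0727), without monocyte TN1 tag_482 (adjusted p = 0.0685) and on the log2(TPM + 1) scale (adjusted p = 0.241). Dhx58, which encodes the regulator LGP2, stood at 53.5 and 126 CPM in TN1 neutrophils, at 49.4, 55.1 and 129 CPM in TN2 neutrophils, at 70.7 and 135 CPM in TN1 monocytes and at 112, 54.6 and 92.6 CPM in TN2 monocytes. The cell types overlapped through most of their range (log2 difference 0.18 ± 0.40, adjusted p = 0.770). Ifih1, the sensor MDA5 of long double-stranded RNA, had -0.75 ± 0.26 (adjusted p = 0.0550). It passed with DESeq2 (adjusted p = 0.0399) and limma-voom (adjusted p = 0.0333). Of its mean TPM, 36.8% fell on the protein-coding transcript Ifih1-202, 18.5% on Ifih1-201 and the rest on transcripts annotated as retained introns or as processed, so its level is uncertain. Eif2ak2, the kinase PKR that stops translation, averaged 21.3 ± 12.0 CPM in neutrophils and 27.4 ± 5.99 CPM in monocytes (SD, n = 5 each), with an adjusted p of 0.351.

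All 4 nucleic acid and nucleotide effectors were lower in monocytes. Isg20 encodes an exonuclease that degrades RNA, and stood at 731 and 539 CPM in TN1 neutrophils and at 527, 1014 and 987 CPM in TN2 neutrophils. In monocytes Isg20 stood at 40.8 and 32.6 CPM in TN1 and at 37.9, 64.9 and 58.5 CPM in TN2, which gave a log2 difference of -4.04 ± 0.30 (adjusted p = 5.42e-05). The lowest neutrophil library of Isg20 lay well above its highest monocyte library. Rsad2 encodes viperin, which makes a nucleotide that ends viral RNA chains, and stood at 842 and 1316 CPM in TN1 neutrophils and at 1026, 1914 and 2911 CPM in TN2 neutrophils. In monocytes Rsad2 stood at 87.0 and 46.2 CPM in TN1 and at 116, 120 and 170 CPM in TN2, with a log2 difference of -3.93 ± 0.37 (adjusted p = 0.000119). Cmpk2, a nucleotide kinase whose gene neighbours Rsad2 on chromosome 12, had -3.35 ± 0.48 (adjusted p = 0.000852). Samd9l, an antiviral factor and growth suppressor of blood cells, stood at 453 and 301 CPM in TN1 neutrophils and at 356, 501 and 962 CPM in TN2 neutrophils. In monocytes Samd9l stood at 50.5 and 36.2 CPM in TN1 and at 61.3, 77.0 and 149 CPM in TN2 (log2 difference -2.89 ± 0.38, adjusted p = 0.000542). None of these 4 genes overlapped between the cell types.

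Stat2, the part of ISGF3 that carries its activation domain, did not pass the test. It stood at 99.2 and 36.5 CPM in TN1 neutrophils, at 167, 81.4 and 225 CPM in TN2 neutrophils, at 83.8 and 61.3 CPM in TN1 monocytes and at 116, 87.4 and 105 CPM in TN2 monocytes. The monocyte libraries fell within the range of the neutrophil libraries, and the log2 difference was -0.26 ± 0.36 (adjusted p = 0.612).

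Among the 6 membrane and other effectors, Bst2 and Ifi44 were higher in monocytes, Rtp4 was lower, and Ifi35, Xaf1 and Sp100 did not pass the test. Bst2 encodes tetherin, which holds budding virus particles at the cell surface. It stood at 8.32 and 21.2 CPM in TN1 neutrophils and at 31.2, 33.7 and 98.6 CPM in TN2 neutrophils. In monocytes Bst2 stood at 229 and 223 CPM in TN1 and at 219, 127 and 233 CPM in TN2, above every neutrophil library (log2 difference 2.88 ± 0.44, adjusted p = 0.00118). Bst2 is also a surface marker of plasmacytoid dendritic cells. The other 5 markers of those cells summed to 36.2 to 132 CPM in monocytes and 7.87 to 22.6 CPM in neutrophils. Tcf4 made up most of these sums, at 32.4 to 112 CPM in monocytes and 4.43 to 18.9 CPM in neutrophils. Siglech, their defining surface lectin, stood at 0 to 0.656 CPM in 4 monocyte libraries and at 13.9 CPM in TN2 tag_706, the monocyte library with the least Bst2. The part of those cells in the Bst2 difference was not tested. Ifi44, a cytoplasmic protein of the interferon response, stood at 4.10 and 0.286 CPM in TN1 neutrophils and at 7.73, 9.67 and 47.5 CPM in TN2 neutrophils. In monocytes Ifi44 stood at 94.4 and 104 CPM in TN1 and at 97.4, 63.0 and 167 CPM in TN2, again without overlap (3.91 ± 0.77, adjusted p = 0.00475).

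Rtp4, a chaperone of membrane receptors, stood at 967 and 1021 CPM in TN1 neutrophils and at 969, 1581 and 2158 CPM in TN2 neutrophils. In monocytes it stood at 182 and 200 CPM in TN1 and at 210, 180 and 236 CPM in TN2, with a log2 difference of -2.64 ± 0.25 (adjusted p = 0.000129). The monocyte libraries of Rtp4 lay within a narrow band. Xaf1, a partner of the caspase inhibitor XIAP, had a log2 difference of -0.06 ± 0.35 (adjusted p = 0.920). Sp100, a scaffold of nuclear bodies, had -0.32 ± 0.32 (adjusted p = 0.483). Ifi35 had 0.49 ± 0.24 (adjusted p = 0.157), and without neutrophil TN2 tag_1341 its difference was 0.66 with an adjusted p of 0.0497. On the log2(TPM + 1) scale the differences of Parp9, Dtx3l, Oas1a, Stat2, Xaf1 and Sp100 changed sign, none of them past the threshold on either scale.

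**Figure D4:**
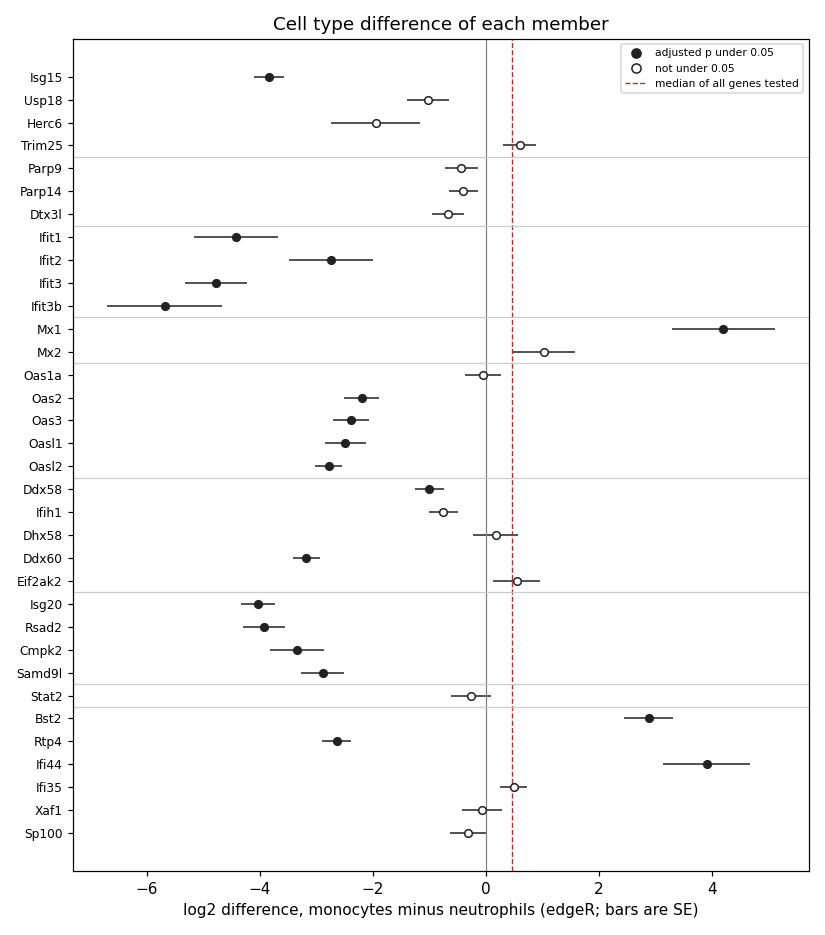
Log2 difference of each member, monocytes minus neutrophils, with its SE from edgeR. Filled points have an adjusted p under 0.05, open points do not, and the dashed line is the median of all genes tested (0.46). The 16 filled points on the left run from -1.0 (Ddx58) to -5.69 (Ifit3b), and the 3 on the right are Bst2, Ifi44 and Mx1.

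The genes that transmit the interferon signal were examined with lists chosen from textbook knowledge, with earlier results of these data known. None of the 18 type I interferon genes reached the filter for testing, 13 of them had 0 counts in every library, and Ifnb1 had at most 3 counts. The largest count of any of these genes was 20, for Ifnk in neutrophil TN2 tag_367. The ligands therefore had too few counts for a comparison. Among 5 receptor and signalling genes, 1 was higher in monocytes and 3 were lower. Ifnar1, the receptor chain that binds TYK2, was lower in monocytes (-1.08 ± 0.21, adjusted p = 0.00412), at 131 to 187 CPM against 262 to 476 CPM in neutrophils, although its adjusted p was 0.106 on the log2(TPM + 1) scale. Jak1 (-1.76 ± 0.20, adjusted p = 0.000279) and Irf9 (-1.70 ± 0.23, adjusted p = 0.000630) were also lower. Irf9 stood at 311 to 654 CPM in neutrophils and 96.8 to 149 CPM in monocytes. Ifnar2 (-0.37 ± 0.25, adjusted p = 0.296) did not pass the test and was positive on the log2(TPM + 1) scale (0.40). Tyk2 was higher in monocytes (1.75 ± 0.58, adjusted p = 0.0484), a call lost on leaving out any of 6 libraries (adjusted p = 0.0801 to 0.163).

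Among 5 interferon regulatory factors, 2 were higher in monocytes and 1 was lower. Irf8, a factor needed for monocyte and dendritic cell development, was higher (4.68 ± 0.86, adjusted p = 0.00322). Irf5 was higher (0.94 ± 0.31, adjusted p = 0.0460) and Irf1 lower (-1.38 ± 0.42, adjusted p = 0.0347), and these calls were lost on leaving out any of 8 libraries (adjusted p = 0.0548 to 0.156) and any of 4 libraries (adjusted p = 0.0561 to 0.116). Irf1 also lost its call on the log2(TPM + 1) scale (adjusted p = 0.159). Irf7, which amplifies interferon production and is itself induced by interferon, stood at 1161 to 3417 CPM in neutrophils and 466 to 1413 CPM in monocytes (-0.87 ± 0.37, adjusted p = 0.105). Its highest library in each cell type was TN2 tag_1341. Among 6 feedback inhibitors none was higher and 2 were lower, namely Pias1 (-1.54 ± 0.28, adjusted p = 0.00291) and Ptpn1 (-0.97 ± 0.25, adjusted p = 0.0164). Ptpn1 lost its call on leaving out any of 3 libraries (adjusted p = 0.0587 to 0.106), and both lost it on the log2(TPM + 1) scale (0.0605 for Pias1 and 0.204 for Ptpn1).

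Among 10 sensing receptors and adaptors, Tlr9, Mavs and Tmem173 were higher in monocytes and Myd88 was lower. Tmem173 encodes STING, the adaptor of cytosolic DNA sensing (4.30 ± 0.77, adjusted p = 0.00284), and Tlr9 is an endosomal DNA receptor (6.15 ± 0.98, adjusted p = 0.00200, with at most 12.6 CPM in any library). Mavs, the mitochondrial adaptor of RIG-I, was at 0 in monocyte TN1 tag_482, and its difference of 7.14 ± 1.65 (adjusted p = 0.0125) was 2.48 without monocyte TN1 tag_191 (adjusted p = 1.0). Myd88, the adaptor of most Toll-like receptors, was lower (-1.83 ± 0.18, adjusted p = 0.000157). Of 30 other interferon-induced genes outside the member list, 5 were higher in monocytes and 7 were lower. The higher genes were Ifi204 (4.29 ± 0.61, adjusted p = 0.000795), Ifi205, Lgals3bp, Phf11b and Phf11d. The lower genes were Ifi27 (-3.33 ± 0.51, adjusted p = 0.00125), Sp140 (-2.79 ± 0.28, adjusted p = 0.000146), Ifi27l2a, Ifit1bl1, Ifit1bl2, Parp10 and Helz2. The calls of Ifi27l2a, Ifit1bl1 and Helz2 were lost on leaving out any of 4, 3 and 3 libraries (adjusted p = 0.0503 to 0.106), and on the log2(TPM + 1) scale (adjusted p = 0.249, 0.0568 and 0.272). Ifit1bl2 lost its call without both tag_482 libraries (adjusted p = 0.0716). None of the genes in these lists passed the test in a tumour comparison.

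The tumour comparison within neutrophils asks which members differ between the low metastatic TN2 and the highly metastatic TN1 tumour. No member passed the test by edgeR, where 0% of all genes did, nor by DESeq2, limma-voom or limma-trend. At an unadjusted p under 0.05 edgeR gave 6 members, all higher in TN2 (4.67% of all genes), DESeq2 gave 6 (7.99%), limma-voom 5 (4.80%) and limma-trend 4 (4.83%). The difference, TN2 minus TN1, was positive for 33 of the 34 members, against 59.7% of all genes, and Dhx58 was the exception. In 14 members every TN2 library exceeded both TN1 libraries (11.8% of all genes did so), and in none did every TN2 library lie below (5.91% of all genes). The median log2 difference was 0.86 over the members and 0.22 over all genes tested. By role the medians ran from 0.62 in the oligoadenylate synthetases to 1.26 in the Ifit genes and 1.87 in the Mx genes.

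These values leaned on neutrophil TN2 tag_1341, the highest neutrophil library for 33 of the 34 members and for 23.8% of all genes tested. Isg20, highest in TN2 tag_706, was the exception. Without TN2 tag_1341 the median of the members was 0.45, that of all genes was 0.21, 31 of the 34 differences were positive (59.6% of all genes) and 2 members, Bst2 and Dtx3l, had an unadjusted p under 0.05 (3.29% of all genes). This library also held the most Ccr2, Ly6c2, F13a1, Ms4a6c and Fn1 among neutrophils, and their part in the tumour difference was not tested. Its plasmacytoid dendritic cell markers summed to 11.3 CPM, within the range of the other neutrophil libraries (7.87 to 22.6 CPM), and its alveolar macrophage markers to 2038 CPM, the highest among them (294 to 1780 CPM in the rest).

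The 4 members with the smallest p in neutrophils were Bst2, Dtx3l, Ifi44 and Mx2. Bst2 had a log2 difference of 1.89 ± 0.62 (edgeR, unadjusted p = 0.0125, adjusted p = 0.943) and 1.14 without TN2 tag_1341. All 3 TN2 libraries of Bst2 exceeded both TN1 libraries. Dtx3l stood at 32.9 and 39.5 CPM in TN1 and at 62.2, 88.8 and 101 CPM in TN2 neutrophils, with a difference of 1.21 ± 0.40 (unadjusted p = 0.0137, adjusted p = 0.943) that was 1.06 without TN2 tag_1341. In monocytes Dtx3l stood at 23.3 and 32.0 CPM in TN1 and at 55.8, 37.7 and 36.1 CPM in TN2, so the groups did not overlap in either cell type. Ifi44 had 3.28 ± 1.12 (unadjusted p = 0.0150, adjusted p = 0.943), 1.97 without TN2 tag_1341, and 0.286 CPM in TN1 tag_482. Mx2 had 2.24 ± 0.83 (unadjusted p = 0.0227, adjusted p = 0.943) and 1.24 without TN2 tag_1341. Isg15 and Oasl2, the most abundant members of their roles, had 0.54 ± 0.34 and 0.63 ± 0.32.

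**Figure D5:**
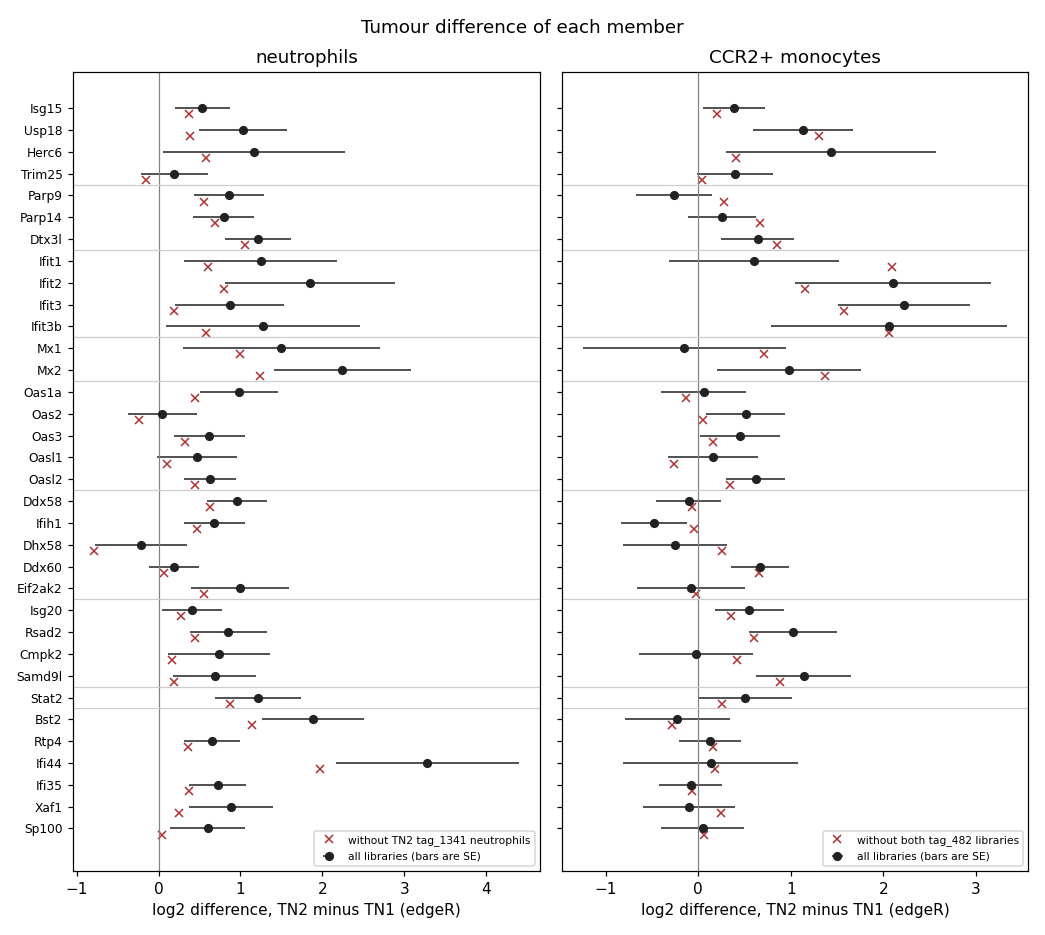
Log2 difference of each member, TN2 minus TN1, in neutrophils (left) and CCR2+ monocytes (right), with points and SE bars from edgeR on all libraries. Red crosses show the neutrophil differences without TN2 tag_1341 and the monocyte differences without both tag_482 libraries. In neutrophils the points centre on 0.86 and the crosses on 0.45, and in monocytes on 0.39 and 0.27.

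Within monocytes no member passed the test for the tumour difference either, by edgeR (0% of all genes), DESeq2, limma-voom or limma-trend. At an unadjusted p under 0.05 edgeR gave 1 member (2.83% of all genes), DESeq2 2 (5.42%), limma-voom 1 (5.24%) and limma-trend on log2(TPM + 1) 12 (9.21%). The difference, TN2 minus TN1, was positive for 24 of the 34 members (59.8% of all genes), with a median of 0.39 over the members and 0.22 over all genes. On the log2(TPM + 1) scale 33 of the 34 were positive (75.7% of all genes), with medians of 0.79 and 0.39. In 11 members all TN2 libraries exceeded both TN1 libraries (12.4% of all genes), and in none were all TN2 libraries lower (7.73% of all genes). Monocyte TN2 tag_1341 was the highest library for 19 members (19.9% of all genes), and without it the median of the members was 0.14. Alveolar macrophage markers summed to 532 and 99.2 CPM in TN1 monocytes (tag_191 and tag_482). In TN2 monocytes they summed to 1688, 4185 and 9253 CPM (tag_367, tag_706 and tag_1341). The part of that in the tumour difference was not tested. Without monocyte TN1 tag_191 Herc6 passed the test (6.92 ± 0.94, adjusted p = 0.0248), with the TN1 group reduced to a library that held 0.361 CPM of it.

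The Ifit genes had the largest monocyte differences by role, with a median of 2.08. Ifit3 was the member under an unadjusted p of 0.05, with 33.0 and 10.7 CPM in TN1 and 75.8, 148 and 82.9 CPM in TN2 monocytes (2.22 ± 0.72, edgeR, unadjusted p = 0.0113, adjusted p = 1). Samd9l had 1.14 ± 0.52 (unadjusted p = 0.0518), Rsad2 1.02 ± 0.47 (unadjusted p = 0.0573) and Ddx60 0.67 ± 0.31 (unadjusted p = 0.0589), each with an adjusted p of 1. For these 4 genes the TN2 monocyte libraries all lay above the TN1 libraries. Without both tag_482 libraries Ifit3 had 1.58 (unadjusted p = 0.0849), Rsad2 0.60 and Ifit2 1.15 (2.10 with them), and no member was under an unadjusted p of 0.05. The RNA sensors and kinases had a median of -0.10. The Ifit genes of monocyte TN2 tag_706 included the highest Ifit1 (111 CPM), Ifit3 (148 CPM) and Ifit3b (27.6 CPM) of the monocyte libraries, and this library also had the highest sum of neutrophil markers among them (1562 CPM against 219 to 845 CPM). The part of that in the Ifit values was not tested.

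In the authors' deposited table for neutrophils 6 members had p under 0.05, where 6.78% of the genes given a fold did. They were Parp9, Dtx3l, Oasl2, Ifih1, Bst2 and Ifi44. In the authors' deposited table for monocytes 10 members did, where 7.82% of the genes given a fold did, namely Isg15, Usp18, Dtx3l, Ifit2, Ifit3, Oasl2, Ddx60, Rsad2, Samd9l and Stat2. The adjusted p in the authors' deposited table was 1 for each of these. Own means of log2(TPM + 1) lay within 0.1 of the group means in the authors' deposited table for 131 of 136 values, and the exceptions were Ifih1 in both cell types and Mx1 in TN2 monocytes.

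The interaction asks whether the tumour difference itself differs between monocytes and neutrophils. No member passed the test by edgeR (0% of all genes), DESeq2, limma-voom or limma-trend. At an unadjusted p under 0.05 edgeR gave 3 members (3.53% of all genes), DESeq2 2 (6.01%), limma-voom 1 (4.68%) and limma-trend 2 (4.48%). They were, by edgeR, Bst2 (-2.11 ± 0.82, unadjusted p = 0.0281), Ifi44 (-3.15 ± 1.40, unadjusted p = 0.0484) and Ifih1 (-1.16 ± 0.52, unadjusted p = 0.0498), each with an adjusted p of 1.0. Their TN2 minus TN1 differences, in that order, were 1.89, 3.28 and 0.68 in neutrophils and -0.23, 0.13 and -0.48 in monocytes. The interaction median was -0.54 over the members and -0.03 over all genes, and without neutrophil TN2 tag_1341 it was 0.0024 over the members.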

How the data were processed

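RNA was measured by Smart-seq2 in 10 libraries of sorted lung cells. The authors estimated counts and TPM per transcript with kallisto 0.42.3 against GRCm38, per the submitters' processing notes, and deposited the estimated counts unscaled. The authors also deposited, per the file headers, log2 group means, log2 folds and p-values for TN2 against TN1, whose test is not given in the sources used here.

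Here transcripts were summed to genes with the GENCODE M21 annotation and the sums rounded. Transcripts without a match held 1.94% to 3.59% of the counts and were left out. Genes were filtered with filterByExpr (minimum total count 10), which left 13384, and scaled by TMM. One edgeR 4.0.16 quasi-likelihood model over the 4 groups (R 4.3.3) gave every contrast, with 6 residual degrees of freedom, a Benjamini-Hochberg adjustment over all genes and a threshold of 0.05. Each SE is the absolute log2 difference divided by the square root of F. CPM were computed on TMM-scaled library sizes. The script was tested on simulated data. DESeq2 1.42.0 and limma 3.58.1 served as alternatives, together with other scalings, filters, pseudocounts, left-out libraries and a tag block.

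The members, the lists and the markers were chosen with earlier results of these data known. A gene of the signalling list and a marker are not reported here. Values in every library are given for the most abundant member of each role by mean TPM, the 8 members with the smallest p between cell types, the members higher in monocytes, and the 4 with the smallest p in each tumour comparison. Other genes are named from the lists when they passed. Precision is limited by groups of 2 and 3 libraries.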

Additional observations from a re-analysis of the deposited data

Results flagged for a closer look

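Among 68 sets of 5 libraries, a member and a cell type each, 10 had a library whose gap to the nearest other exceeded 0.71 of the whole range. For 5 independent values from a normal distribution such a gap arises in about 1 set in 20. These CPM were not logged, each set mixes both tumours, and sets of a cell type share libraries, so that rate does not apply here. In 9 of the 10 flagged sets the library was neutrophil TN2 tag_1341, the highest neutrophil library. It held 244 CPM of Usp18 and 275 CPM of Herc6, where the other neutrophil libraries reached at most 97.6 and 112 CPM. It held 725 CPM of Ifit2, 52.0 CPM of Mx2 and 868 CPM of Oas1a, against at most 185, 16.0 and 400 CPM in the others. It held 98.6 CPM of Bst2, 47.5 CPM of Ifi44, 219 CPM of Xaf1 and 708 CPM of Sp100, against at most 33.7, 9.67, 88.8 and 307 CPM. In monocytes, TN2 tag_706 was low in Bst2, at 127 CPM where the next library held 219 CPM.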

How the results depend on the processing

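The count of 19 members that passed between cell types ran from 18 to 22 over all alternatives, and from 18 to 21 on leaving out a library. On the log2(TPM + 1) and log2(TPM + 0.1) scales the members' median was -0.43 and -0.45, and the differences of Parp9 (0.18 and 0.18), Dtx3l (0.024 and 0.027), Oas1a (0.72 and 0.72), Stat2 (0.59 and 0.63), Xaf1 (0.60 and 0.61), Sp100 (0.37 and 0.37) and Ifnar2 (0.40 and 0.40) changed sign. The members' interaction median was 0.023 on the log2(TPM + 1) scale. Without both tag_1341 libraries, an alternative chosen after seeing the data, Oas1a was 0.10 and Xaf1 0.17. On leaving out a library, Oas1a ran from -0.19 to 0.21, Dhx58 from -0.091 to 0.55, Stat2 from -0.53 to 0.19, Xaf1 from -0.24 to 0.26 and the interaction median from -0.63 to 0.0024. The cause of these changes was not tested. Herc6 alone took the counts of the tumour comparison in monocytes and of the interaction from 0 to 1, without monocyte TN1 tag_191 (adjusted p = 0.0248 and 0.0469). As reported, edgeR called 0 genes in each tumour comparison. With no filter on low counts it called 2 higher in neutrophils and 1 lower in the interaction. DESeq2 called 78 higher and 9 lower in neutrophils, 17 and 5 in monocytes, and 4 and 17 in the interaction. Without TN1 tag_191 the TN1 group of a cell type was tag_482 alone, the library with the lowest gene number and the largest mitochondrial part. Calls over all genes from such fits are not counted here. The median tumour difference of all genes was then 0.69 in neutrophils and 0.72 in monocytes. It was 0.14 and 0.15 when TN1 tag_482 of that cell type was left out instead. In TN2, same-tag libraries deviated together for tag_706 (r = 0.377) and tag_1341 (r = 0.352) and not for tag_367 (-0.0761). Libraries of different tags in TN2 ran from -0.412 to 0.228. With 2 TN1 libraries in each cell type, tag_191 and tag_482 share 1 value by construction (0.090). These values do not decide whether the tags pair the samples. The main fit was left unpaired because the labels state no pairing. With the tag as a replicate block, 3 members were higher in monocytes and 18 lower (21 in all), and 0 passed in the interaction. Under the block Usp18 (adjusted p = 0.0383), Herc6 (0.0426) and Irf7 (0.0404) passed between cell types, and Tyk2 (0.0506) and Irf5 (0.0573) did not.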
